A study of Homo sapiens with 3 samples.

Results

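Long noncoding RNA (lncRNA) genes whose start lay more than 2 kb from the start of every protein-coding transcript were examined for peaks of CHD8 and TRRAP. They were taken from GENCODE release 44 on chromosomes 1 to 22 and X, and numbered 14611 of 18756 lncRNA genes. The other 4145 lncRNA genes began within 2 kb of a coding start and served only for comparison, as did 19970 protein-coding gene starts. A start was scored as occupied when a peak came within 1 kb of the annotated 5′ end of the gene, upstream or downstream. The rule used positions alone and no measured value.

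The peaks came from chromatin immunoprecipitation followed by sequencing in wild-type neural stem cells. These had been made from the human embryonic stem cell line H9. Cells received 2 mM disuccinimidyl glutarate and then 1% formaldehyde as crosslinkers, and chromatin was sheared in 14 sonication cycles. Each antibody (CHD8, TRRAP or IgG) had 1 library from these same cells, so no comparison between conditions and no replicate error was possible. The CHD8 list held 23393 peaks, and the TRRAP list held 14735. The IgG library was not analysed here, and the labelled cell type cannot be checked from peaks alone.

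CHD8 belongs to the CHD family of ATP-dependent chromatin remodelers, and its gene is often mutated in autism. TRRAP is a large scaffold protein without kinase activity that serves in histone acetyltransferase complexes and is recruited by factors such as MYC and E2F. Many lncRNAs are transcribed from promoters like those of coding genes, and others start at enhancers or inside genes. Known examples scaffold nuclear bodies, take part in X inactivation or carry small nucleolar RNAs (snoRNAs) and microRNAs in their introns. Occupancy at such starts bears on where these proteins sit apart from coding promoters.

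The sequences below are the 201 bases centred on a peak summit of 6 lncRNA starts, on GRCh38 (hg38) and in the direction of the lncRNA. MALAT1, NEAT1, JPX and NORAD show the CHD8 summit of well-known lncRNAs with both proteins. CRYBB2P1 and SLC38A4-AS1 show the TRRAP summit of starts with high TRRAP folds. Capitals mark exact matches, on either strand, to the consensus words of transcription factors described further on. The MALAT1 sequence lies at chr11:65497650-65497850 on the plus strand, with its summit in a MALAT1 exon, and holds an SP word.
MALAT1: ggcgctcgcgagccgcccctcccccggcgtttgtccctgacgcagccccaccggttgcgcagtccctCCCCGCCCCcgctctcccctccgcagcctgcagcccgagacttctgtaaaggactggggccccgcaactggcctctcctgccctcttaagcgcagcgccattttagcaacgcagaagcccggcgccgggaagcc
The NEAT1 sequence lies at chr11:65422270-65422470 on the plus strand, upstream of the gene, and holds none of the words.
NEAT1: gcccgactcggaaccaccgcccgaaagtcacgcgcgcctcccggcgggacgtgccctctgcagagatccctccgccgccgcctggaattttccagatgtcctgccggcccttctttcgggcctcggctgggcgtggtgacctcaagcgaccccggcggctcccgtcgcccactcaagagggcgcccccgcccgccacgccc
The JPX sequence lies at chrX:73944171-73944371 on the plus strand, with its summit in a JPX exon and in an intron of FTX, and holds a YY1 word.
JPX: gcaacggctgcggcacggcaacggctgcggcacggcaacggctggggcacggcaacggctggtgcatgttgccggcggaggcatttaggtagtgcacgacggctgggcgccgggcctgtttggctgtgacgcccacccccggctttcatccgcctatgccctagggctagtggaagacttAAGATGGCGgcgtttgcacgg
The NORAD sequence lies at chr20:36050921-36051121 on the minus strand, with its summit just upstream of the gene, and holds an E-box and an ETS word.
NORAD: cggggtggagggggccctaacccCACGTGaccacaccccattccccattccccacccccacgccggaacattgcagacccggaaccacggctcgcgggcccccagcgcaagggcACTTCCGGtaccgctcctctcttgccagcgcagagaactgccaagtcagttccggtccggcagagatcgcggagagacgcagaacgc
The CRYBB2P1 sequence lies at chr22:25447977-25448177 on the plus strand, with its summit just upstream of the gene, and holds none of the words.
CRYBB2P1: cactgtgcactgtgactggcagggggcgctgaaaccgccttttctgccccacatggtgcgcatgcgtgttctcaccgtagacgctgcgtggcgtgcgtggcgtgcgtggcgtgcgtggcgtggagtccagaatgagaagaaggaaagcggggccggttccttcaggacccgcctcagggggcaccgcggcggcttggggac
The SLC38A4-AS1 sequence lies at chr12:46383438-46383638 on the plus strand, with its summit in an intron of the gene, and holds an E-box.
SLC38A4-AS1: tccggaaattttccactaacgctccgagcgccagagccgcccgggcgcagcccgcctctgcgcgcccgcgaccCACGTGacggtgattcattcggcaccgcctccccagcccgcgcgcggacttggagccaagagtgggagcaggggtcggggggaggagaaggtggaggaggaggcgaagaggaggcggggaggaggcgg

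A CHD8 peak was found at 1014 of the 14611 lncRNA starts (6.94%, Wilson 95% interval 6.54 to 7.36). A TRRAP peak was found at 590 (4.04%, interval 3.73 to 4.37), and both at 545 (3.73%, interval 3.43 to 4.05). All intervals cover counting error only, not the error between libraries. Over all lncRNA and coding gene starts together the shares were 36.8% with CHD8, 22.9% with TRRAP and 22.2% with both. The distant lncRNA starts thus lay far below the average start. They lay above windows of equal width tiled over the genome more than 2 kb from coding starts, of which 0.624% held a CHD8 peak, 0.346% a TRRAP peak and 0.278% both. At the 4145 lncRNA starts near coding starts, 63.1% held CHD8 and 41.7% held TRRAP, and at coding gene starts the shares were 53.2% and 32.9%.

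Both proteins were found at 545 of the 1059 lncRNA starts with either peak (51.5%, interval 48.5 to 54.5). Of the 590 starts with TRRAP, 92.4% (interval 89.9 to 94.3) also had CHD8, against 96.9% at coding gene starts. Of the 1014 starts with CHD8, 53.7% (interval 50.7 to 56.8) also had TRRAP, against 59.9% (interval 59.0 to 60.8) at coding gene starts and 64.9% (interval 63.0 to 66.7) at lncRNA starts near coding starts. Among the tiled windows over 2 kb from coding starts, 44.6% (interval 43.5 to 45.6) of those with CHD8 also had TRRAP. CHD8 was in 80.5% (interval 79.3 to 81.6) of the tiled windows with TRRAP. CHD8 alone was at 469 starts and TRRAP alone at 45 (0.308%). In the windows with both, a CHD8 peak and a TRRAP peak overlapped by at least 1 bp at 536 of 545 starts. The remaining 13552 starts (92.8%) had neither peak. At the edge of the rule, 7.14% of the 224 starts 2 to 2.5 kb from a coding start held CHD8 and 5.80% held TRRAP, beside 16.8% and 7.34% of the 286 lncRNA starts at 1.5 to 2 kb.

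In all, 1063 CHD8 peaks (4.54% of the list) and 603 TRRAP peaks (4.09%) lay at these starts. Only 3 of the CHD8 peaks, and 0 of the TRRAP peaks, also lay within 1 kb of a coding transcript start. Peak strength is given as the deposited fold, the authors' ratio of the signal at the summit over the caller's background. It describes peaks within their own list and is not compared between lists. The CHD8 peaks at lncRNA starts had a median fold of 8.87 (quartiles 7.10 and 11.96) and a median width of 363 bp. CHD8 peaks at coding starts had a median fold of 10.2 and a width of 503 bp, and CHD8 peaks at neither had 8.43 and 263 bp. The TRRAP peaks at lncRNA starts had a median fold of 8.17 and a width of 233 bp, close to the 8.17 and 243 bp of those at coding starts. Starts were not independent, since the strongest peaks of the 1014 starts with CHD8 were 868 distinct peaks and those of the 590 starts with TRRAP were 492.

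Repeated sequence touched many of these peaks. The summit was called multi-copy when the median 32-base word around it occurred more than once in the genome. This held for 18.2% (interval 16.0 to 20.6) of the CHD8 peaks and 18.6% (interval 15.7 to 21.9) of the TRRAP peaks at lncRNA starts. At coding starts the shares were 1.84% and 1.52%, and among peaks at neither kind of start they were 17.8% and 33.9%. How the reads of such places were assigned was not tested, so members with multi-copy summits are uncertain and are named only as such. With single-copy summits alone, CHD8 was at 5.76% of the lncRNA starts and TRRAP at 3.33%.

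Summits of both proteins gathered at the annotated start. In the 500 bp bins next to the start, 2.90% of the lncRNA starts had a CHD8 summit just upstream and 2.99% just downstream, against 0.304% and 0.363% in the outermost bins, which ended 5 kb away. TRRAP summits were at 1.79% and 1.70% next to the start and at 0.145% and 0.210% in the outermost bins. Bins whose middle came within 2 kb of a coding start were left out. Among occupied starts with the summit in the window, the median CHD8 summit lay 3 bp downstream (quartiles −163 and 214, 958 starts) and the median TRRAP summit 4 bp downstream (572 starts). CHD8 summits lay within 250 bp of the start at 58.7% (interval 55.5 to 61.7) of these lncRNA starts and at 69.6% of coding gene starts. For TRRAP the shares were 58.4% and 64.9%. Summits were about equally frequent on each side, with 49.4% of the CHD8 summits upstream.

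**Figure D1:**
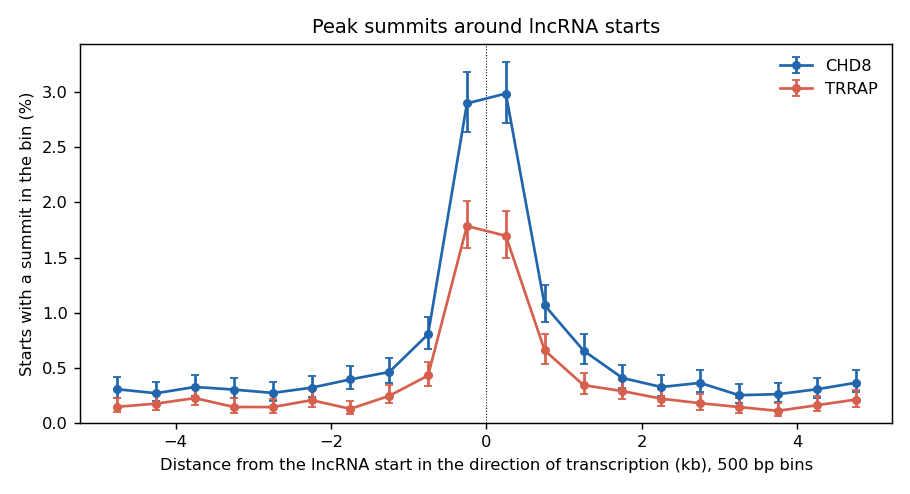
Share of lncRNA starts with a peak summit in each 500 bp bin, by distance from the start in kb along the direction of transcription, for CHD8 and TRRAP. Points are percentages of the starts whose bin stayed over 2 kb from coding starts (at least 13788) and bars are Wilson 95% intervals. Both lines peak in the bins touching the start, at 2.99% for CHD8 and 1.79% for TRRAP.

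Occupancy rose with CpG content. The CpG ratio (observed over expected CpG within 500 bp of the start) had a median of 0.242 at the lncRNA starts and 0.688 at coding gene starts. It was 0.716 at lncRNA starts with both proteins, 0.565 with CHD8 alone, 0.376 with TRRAP alone and 0.231 with neither. Of the 5504 lncRNA starts with a ratio under 0.2, 1.14% held CHD8 and 0.491% held TRRAP. Of the 385 starts with a ratio of at least 0.8, 57.9% (interval 52.9 to 62.8) held CHD8 and 43.9% (interval 39.0 to 48.9) held TRRAP.

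At equal CpG ratio, lncRNA starts held the proteins less often than coding starts, with intervals that did not overlap in any bin for CHD8 and, for TRRAP, overlapped in the lowest bin only. At a ratio of 0.6 to 0.8, CHD8 was at 37.0% (interval 34.1 to 40.0) of 1005 lncRNA starts and at 73.3% of coding gene starts. TRRAP there was at 22.7% (interval 20.2 to 25.4) and 41.0%. Weighted to the CpG ratios of the lncRNA starts, the coding shares came to 17.2% for CHD8 and 8.71% for TRRAP, both above the 6.94% and 4.04% measured. The share of CHD8-occupied starts that also had TRRAP was closer between the kinds of start, with overlapping intervals in 4 of the 5 bins. The exception was 0.4 to 0.6, with 33.0% (interval 26.5 to 40.1) at lncRNA starts and 43.5% (interval 40.3 to 46.8) at coding starts. In the bin of 0.6 to 0.8 it was 59.4% (interval 54.3 to 64.3) at lncRNA starts and 54.3% (interval 52.9 to 55.8) at coding starts. At 0.8 and above it was 74.4% (interval 68.3 to 79.7) and 70.1% (interval 68.8 to 71.4).

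**Figure D2:**
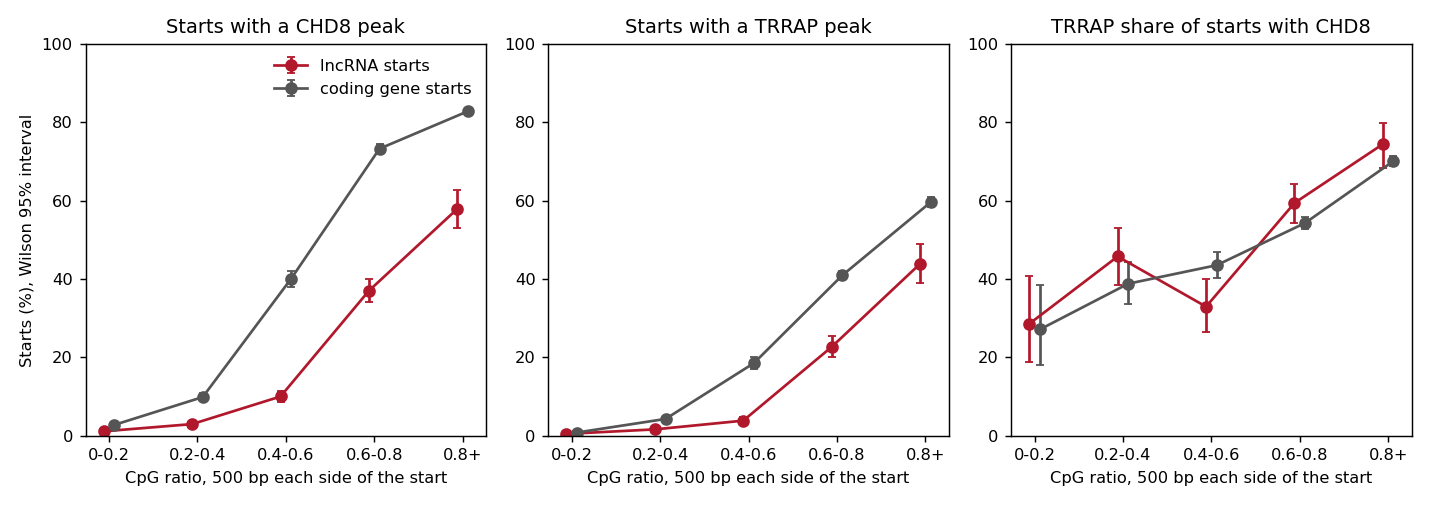
Share of starts with CHD8, with TRRAP, and with TRRAP among starts with CHD8, by bin of CpG ratio, for lncRNA starts and coding gene starts. Bars are Wilson 95% intervals. The lncRNA line runs below the coding line for CHD8 and TRRAP, while the lines for TRRAP among CHD8 starts cross, with 33.0% and 43.5% at 0.4 to 0.6 and 74.4% and 70.1% in the highest bin.

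Stronger CHD8 peaks had TRRAP more often. The 1014 occupied starts were ranked by CHD8 significance and split into 4 equal groups. TRRAP was at 78.7%, 65.7%, 46.2% and 24.1% of them, from the strongest group to the weakest. The CHD8 fold had a median of 11.5 and a width of 638 bp where TRRAP was also present, and 8.43 and 315 bp where it was not. The TRRAP fold had a median of 8.65 with CHD8 and 8.17 without. Across 355 distinct pairs of single-copy peaks, the folds of the lists had a Spearman correlation of 0.31 as a description over peaks of 1 library each. Their summits lay a median of 80 bp apart (quartiles 35 and 193 bp).

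**Figure D3:**
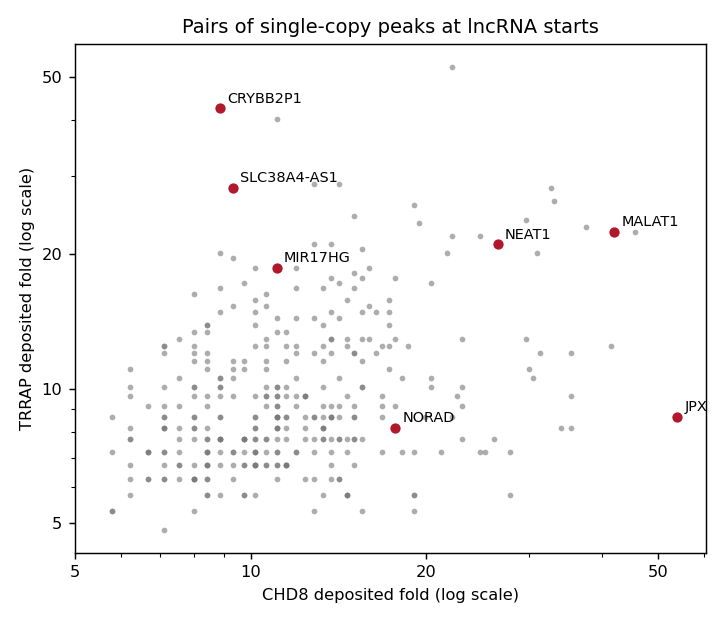
Deposited fold of the strongest CHD8 peak (horizontal, log scale) and the strongest TRRAP peak (vertical, log scale) at each of 355 pairs of single-copy peaks at lncRNA starts. Named points show JPX at a CHD8 fold of 53.9 with a TRRAP fold of 8.65, and CRYBB2P1 at 8.87 with a TRRAP fold of 42.6.

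Among single-copy peaks with their summit in the window, the strongest CHD8 peak was at JPX, a lncRNA of the X-inactivation centre that acts on XIST. It spanned chrX:73944049-73944949 with a fold of 53.9 and ranked 94 in the CHD8 list, with its summit 89 bp inside the gene at the sequence shown above. The TRRAP peak in that window had a fold of 8.65 and ranked 6822. At CROCCP2, a pseudogene-derived transcript, the CHD8 fold was 45.5 and the TRRAP fold 22.5. At MALAT1, an abundant nuclear RNA of speckles, the CHD8 peak covered chr11:65497273-65499161 with a fold of 42.0, and the TRRAP fold was 22.5 with its summit 14 bp inside the gene. MALAT1 shares these peaks with ENSG00000270117, whose start lies in the same window. At MIRLET7IHG, a host of a let-7 microRNA, the CHD8 fold was 41.6 and the TRRAP fold 12.5, in a window shared with LINC01465 and ENSG00000275180. The next CHD8 folds were 37.6 at LINC02960 and 35.4 each at LINC03065, PCGF3-AS1 and TRIM7-AS2, whose TRRAP folds ran from 8.17 to 22.98. TRIM7-AS2 shares its peaks with LINC01962. All 8 of the starts named here for CHD8 thus had both proteins.

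The strongest TRRAP peaks, ranked over the same single-copy summits, fell at other genes. ENSG00000243176, whose nearest coding start is CCNL1, had a TRRAP fold of 52.6 and a CHD8 fold of 22.1. CRYBB2P1, a crystallin pseudogene transcript, had a TRRAP fold of 42.6 at rank 121 of its list, and a CHD8 fold of 8.87 at rank 13236. Both of its summits lay within 17 bp of the start. ENSG00000287180, nearest to NR2F1, a nuclear receptor gene of cortical patterning, had a TRRAP fold of 40.2 and a CHD8 fold of 11.1. ENSG00000230454 and ENSG00000241596, the latter inside GAP43, each had a TRRAP fold of 28.7, with CHD8 folds of 12.8 and 14.2. SLC38A4-AS1 had a TRRAP fold of 28.2 and a CHD8 fold of 9.31, and the TRRAP summit held the E-box shown above. ENSG00000291073 and LINC01003 had TRRAP folds of 28.2 and 26.3 beside CHD8 folds of 32.7 and 33.2. No gene was among the first 8 of both rankings.

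The strongest single-copy CHD8 peaks without TRRAP were at MRPS31P5 (fold 31.8), GLUD1P3 (27.9), ENSG00000263011 (26.5), ENSG00000290112 (23.5) and ENTPD3-AS1 (22.6). The nearest coding start to ENSG00000290112, that of MYT1L, lay 282020 bp away. MRPS31P5 and GLUD1P3 are pseudogene-derived, and the GLUD1P3 peak serves 3 other lncRNA starts. The strongest single-copy TRRAP peaks without CHD8 were at ENSG00000285593 (fold 18.2), ENSG00000283828 (14.4), DCUN1D2-AS (14.4), ENSG00000286880 (11.99) and ENSG00000267141 (10.6). Of the 45 starts with TRRAP alone, 34 had their nearest CHD8 peak more than 10 kb away, and 25 had a CpG ratio under 0.4. At 2 of the 45, the TRRAP peak itself overlapped a CHD8 peak that lay outside the window.

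The highest fold of each list at these starts was at a multi-copy summit on chromosome 21, where 4 lncRNA genes start near annotated ribosomal RNA genes. The CHD8 folds were 57.9 at ENSG00000280800, 48.6 at ENSG00000280614, 44.7 at ENSG00000281181 and 36.7 at ENSG00000281383. The TRRAP folds there were 68.4, 66.9, 68.8 and 72.2 in the same order. These summits lay upstream, at −1819 to −1052 bp from the lncRNA starts, outside the windows that the peaks reached into. Which of the repeated copies the reads came from cannot be told apart.

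A list of 57 lncRNAs, called the panel here, known from neural, stem cell or general studies held 37 members, while 17 began near coding starts or were of another type and 3 symbols were not found. Of the 37, 18 had CHD8, 13 had TRRAP, 12 had both and 18 had neither. The panel was chosen as well-known genes, and the shares over all 14611 members were 6.94% for CHD8, 4.04% for TRRAP and 3.73% for both. NEAT1, the scaffold of paraspeckles, had folds of 26.5 for CHD8 and 21.1 for TRRAP, with the peaks at chr11:65421869-65423078 and chr11:65421871-65422861. NORAD, which binds PUMILIO proteins, had a CHD8 fold of 17.7 and a summit 3 bp before the start, while its TRRAP summit (fold 8.17) lay 457 bp inside the gene. NEAT1 shares its peaks with ENSG00000290057, and NORAD shares its peaks with ENSG00000234139. OIP5-AS1 had 14.6 for CHD8 and 5.78 for TRRAP.

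Of the panel members named as microRNA hosts, MIR17HG, MIR124-2HG and MIR9-1HG had peaks at the gene start, and MIR100HG, MIR99AHG, MIR302CHG, MIR4435-2HG and MIR9-3HG had none. MIR17HG, the host of an oncogenic microRNA cluster, had folds of 11.1 for CHD8 and 18.7 for TRRAP, and DLEU2, another microRNA host, had 10.2 and 13.9. Their CHD8 summits lay outside the windows, 1320 bp inside MIR17HG and 1217 bp inside DLEU2. The DLEU2 TRRAP summit also lay outside, at 1018 bp, and this TRRAP peak is shared with ENSG00000274270. At MIR17HG these CHD8 and TRRAP peaks did not overlap each other. MIR124-2HG and MIR9-1HG, hosts of neural microRNAs, had CHD8 folds of 14.2 and 11.5 and TRRAP folds of 6.26 and 6.73. PVT1, a neighbour of MYC, had 7.98 and 6.26 with both summits within 4 bp of the start. DANCR had 8.87 and 7.69, from peaks shared with LINC01618, and EPB41L4A-AS1 had 10.2 and 6.73. CHD8 without TRRAP was found at FTX (11.96), SNHG5 (10.6), FIRRE (8.87), KCNQ1OT1 (7.98), MIAT (6.66) and CYTOR (6.22, multi-copy). The FTX summit lay 1282 bp inside the gene, outside the window, and CYTOR shares its peak with NCAL1. SNHG12 was the single panel member with TRRAP alone (13.9) in the window of its gene start, and that TRRAP summit lay 1125 bp inside the gene. A CHD8 peak of fold 8.43 (chr1:28581711-28582094) lay within the span of this TRRAP peak (chr1:28581690-28582207). It fell beyond the window but within 1 kb of another SNHG12 start.

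**Figure D4:**
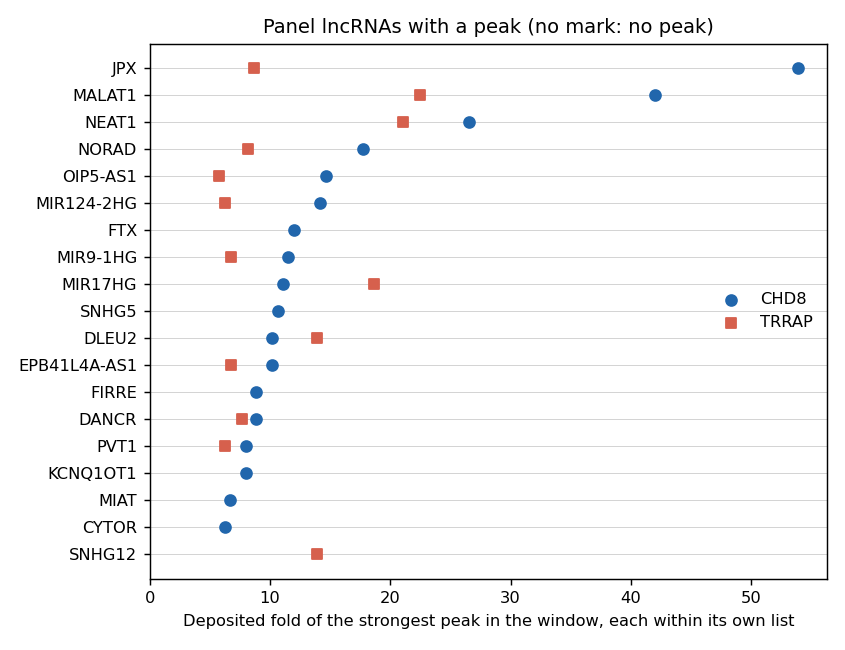
Deposited fold of the strongest CHD8 peak (circles) and TRRAP peak (squares) in the window of each panel lncRNA with a peak, sorted by CHD8 fold. The folds of the lists are not on a shared scale. JPX (53.9), MALAT1 (42.0) and NEAT1 (26.5) lead for CHD8, while TRRAP leads at MALAT1 (22.5), NEAT1 (21.1) and MIR17HG (18.7).

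The 18 panel members with neither peak at the gene start included the imprinted MEG3 and H19 and the pluripotency-related LINC-ROR, ESRG and MIR302CHG. Neural entries among them were RMST, DLX6-AS1, SOX1-OT, SOX21-AS1, LINC00461, OTX2-AS1, NKX2-2-AS1 and MIR9-3HG, and the others were MIR100HG, MIR99AHG, MIR4435-2HG, LINC00511 and CASC15. For 9 of the 18, CHD8 was found at another annotated start of the gene. The folds there were 15.1 at MIR99AHG, 14.2 at LINC00461, 11.96 at CASC15, 11.5 each at SOX1-OT and LINC00511, 7.54 each at MIR100HG and MIR9-3HG, 6.66 at RMST and 5.77 at MIR4435-2HG. These starts lay from 1325 bp (CASC15) to 456273 bp (MIR100HG) from the gene start. That of LINC00461 lay 31193 bp away, that of SOX1-OT 50273 bp and that of MIR99AHG 351414 bp. The SOX1-OT peak of CHD8 is the same peak that is given further on for LINC00404. TRRAP was also present at the other starts of MIR99AHG (6.73), CASC15 (6.73) and SOX1-OT (8.65). Over all members, counting any start added 118 genes with CHD8 and 64 with TRRAP.

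Hosts of snoRNAs, whose RNAs guide modification of ribosomal RNA and are made in growing cells, held the highest share of any symbol class. Of 21 such hosts, 16 (76.2%, interval 54.9 to 89.4) had CHD8 and 11 (52.4%, interval 32.4 to 71.7) had TRRAP, all with single-copy summits. The CpG bins of all members weighted to these 21 hosts gave 34.8% and 22.99%. The highest CHD8 folds in the class were 27.9 at SNHG32, 21.2 at SNHG11 and 15.1 at SNHG7, and the highest TRRAP folds were 18.2 at SNHG7, 13.9 at SNHG12 and 10.6 at SNHG21. SNHG14, SNHG20, SNHG27 and SNHG28 had neither.

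Hosts of microRNAs had CHD8 at 16 of 73 starts (21.9%, interval 14.0 to 32.7) and TRRAP at 11 (15.1%). The CpG bins of all members weighted to these hosts gave 14.9% and 9.50%, both inside the Wilson intervals of the class. The class includes MIRLET7A1HG (CHD8 24.8, TRRAP 22.02), MIR762HG (23.01 and 12.9), MIR130AHG (25.2 and 7.21) and MIR210HG (11.96 and 16.8). At MIR130AHG the CHD8 summit lay 1528 bp downstream of the start, outside the window. All 11 microRNA hosts with TRRAP also had CHD8. Other genes with a given name had CHD8 at 127 of 608 starts (20.9%, interval 17.8 to 24.3), LINC genes at 7.80% of 2167 and antisense (-AS) genes at 7.36% of 965. For the 608 other named genes, the CpG bins of all members gave 15.05%. With single-copy summits alone, their share was 15.1% (interval 12.5 to 18.2). Genes known by an identifier alone had CHD8 at 612 of 10636 starts (5.75%, interval 5.33 to 6.21) and TRRAP at 3.35%. These unnamed genes made up 612 of the 1014 starts with CHD8. For them the CpG bins of all members gave 6.22%, and single-copy summits alone gave CHD8 at 4.67%.

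**Figure D5:**
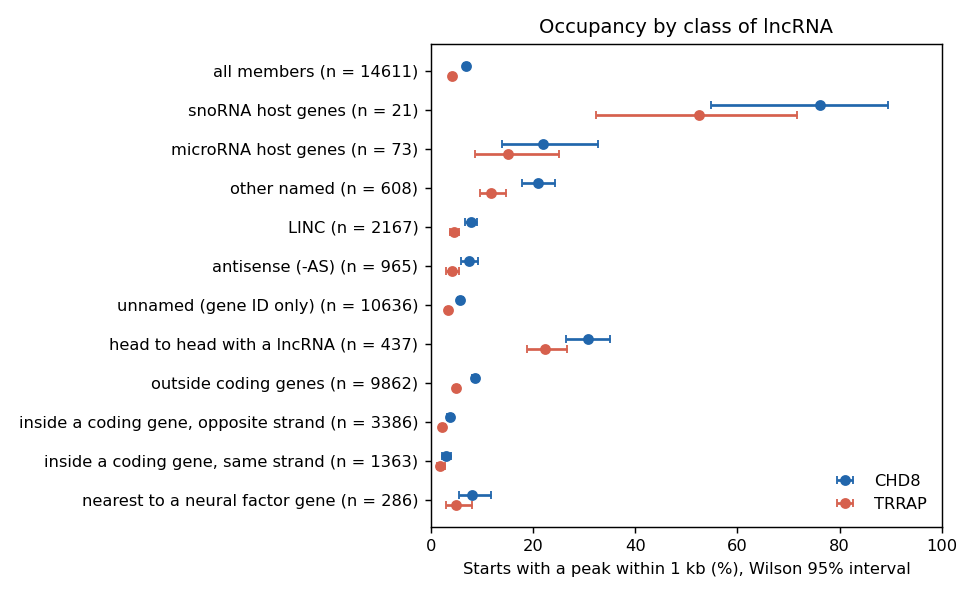
Share of lncRNA starts with a CHD8 or TRRAP peak within 1 kb, by class, with Wilson 95% intervals and the number of starts in each class. The snoRNA hosts stand highest, at 76.2% for CHD8 and 52.4% for TRRAP, and of the classes plotted the head-to-head lncRNA pairs come next at 30.7% and 22.4%.

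Position relative to other genes also separated the starts. Starts outside coding genes held CHD8 at 8.61% (interval 8.07 to 9.18) of 9862, those inside a coding gene on the opposite strand at 3.72% of 3386, and those inside one on the same strand at 2.86% of 1363. For the composition of these groups, the CpG bins of all members gave 8.00%, 4.85% and 4.49%, a smaller spread in the same order. Starts head to head with another lncRNA start within 1 kb held CHD8 at 134 of 437 (30.7%, interval 26.5 to 35.1) and TRRAP at 98 (22.4%, interval 18.8 to 26.6). All 98 had both proteins, so TRRAP was at 73.1% (interval 65.1 to 79.9) of the CHD8-occupied head-to-head starts and at 50.8% (interval 47.5 to 54.1) of the other CHD8-occupied starts. Head-to-head starts had a median CpG ratio of 0.468, and the CpG bins of all members gave 20.5% and 13.5% for their composition. With single-copy summits alone their shares were 24.3% and 17.4%. Partner starts lie within 1 kb of each other and can share a peak, as LINC00467 and ENSG00000287033 do. The head-to-head starts are therefore not independent, though the intervals treat them as separate.

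Starts of small or other RNA genes in the window, taken as 1 mixed class, went with high shares of both proteins. Where a small or other RNA gene began in the window, CHD8 was at 53 of 194 starts (27.3%, interval 21.5 to 33.99) and TRRAP at 45 (23.2%). For the composition of these starts, the CpG bins of all members gave 16.7% and 10.8%. Of these 53, TRRAP was at 84.9% (interval 72.9 to 92.1), against 50.4% (interval 46.9 to 53.8) where no other gene type began. By type, CHD8 and TRRAP were at 15 and 12 of 33 windows with an snRNA gene, of which 9 and 4 had single-copy summits. For microRNA genes the counts were 27 and 25 of 77, with 18 and 15 single-copy. At starts tagged as overlapping a pseudogene, CHD8 was at 20.5% (interval 17.7 to 23.5) of 743, and at 12.1% with single-copy summits alone. Their composition gave 16.5% from the CpG bins of all members. The part of the small RNA genes themselves in these peaks was not tested.

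Neighbouring coding genes made a smaller difference. Where the nearest coding gene start held CHD8, 7.84% (interval 7.25 to 8.48) of 7396 lncRNA starts held it too, against 6.02% (interval 5.49 to 6.59) of 7215 where it did not. At 2 to 5 kb the shares were 9.42% (interval 7.35 to 11.98) and 5.22% (interval 3.64 to 7.45), and beyond 50 kb they were 6.08% and 4.57%. Of 286 members nearest to 70 of 92 listed neural transcription factor genes, 23 had CHD8 (8.04%, interval 5.42 to 11.8), 14 had TRRAP (4.90%) and 13 had both. Other members had 6.92% and 4.02%, which lay within those intervals. Besides ENSG00000287180, the neural-factor members with both proteins included LINC01159, nearest to POU3F3 (CHD8 8.87, TRRAP 16.8), and LINC03010, nearest to EN2 (8.87 and 14.9). Others were ENSG00000283010, nearest to POU3F2 (10.6 and 12.9), LINC00391, nearest to SOX21 (14.2 and 8.65), and LINC00404, nearest to SOX1 (11.5 and 8.65). Their distances to these coding starts ran from 2066 bp for ENSG00000283010 to 76053 bp for LINC03010. LINC02026, LINC02028 and ENSG00000276407, nearest to HES1, a Notch target, each had both proteins, with CHD8 folds of 7.10 and TRRAP folds of 8.17 to 11.99. They lay 65123 to 132388 bp from the HES1 start. LINC02028 and ENSG00000276407 share their CHD8 peak. At LINC01159, ENSG00000283010, LINC00404, LINC02026 and LINC02028, the strongest CHD8 and TRRAP peaks, whose folds are given, did not overlap each other. At LINC00391 the TRRAP summit lay 1090 bp downstream of the start, outside the window.

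Exact words of known factors were counted within 100 bp of the summits on both strands. The words were E-box CACGTG, E2F TTTCCCGC or TTTGGCGC, ETS CCGGAAGT, YY1 AAGATGGCG, SP GGGGCGGGG, the CCAAT box CCAAT and the TATA box TATAAA, besides the NRF1 and CTCF cores. No mismatch was allowed, and words could overlap one another. The E-box, a word of MYC and related factors, was in 7.91% (interval 5.84 to 10.6) of the 493 CHD8 peaks at lncRNA starts that overlapped TRRAP and in 4.74% (interval 3.28 to 6.80) of the 570 that did not, with overlapping intervals. It was in 8.79% of the TRRAP peaks there, in 8.51% of TRRAP peaks at coding starts, and within 100 bp of 4.92% of all 38726 starts. SP words were in 11.8% and 8.60% of the CHD8 peaks with and without TRRAP, in 16.5% of CHD8 peaks at coding starts and at 10.5% of all starts. The E2F words were in 1.62% and 2.11%, against 1.27% of all starts.

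The YY1 word was rarer at the lncRNA peaks than at coding ones. It was in 1.42% (interval 0.689 to 2.90) and 0.526% of the CHD8 peaks with and without TRRAP, in 4.02% (interval 3.70 to 4.35) of CHD8 peaks at coding starts and at 1.23% of all starts, and JPX was one of its carriers. ETS words were in 3.85% (interval 2.48 to 5.94) and 2.98% (interval 1.87 to 4.72), against 5.30% in CHD8 peaks at coding starts and 3.00% of all starts. NRF1, CTCF, CCAAT and TATA words were in 0.609%, 0.609%, 15.6% and 2.84% of the CHD8 peaks with TRRAP, beside 0.850%, 0.416%, 25.6% and 8.61% of all starts. Peaks were searched around their summits and all starts around the annotated start, so the sequences compared also differ in position. Within 100 bp of the start itself, among members with a CpG ratio of at least 0.6, SP words were at 18.8% of the 595 with CHD8 and at 8.41% of the 785 with neither, and CCAAT at 26.7% and 17.5%. The intervals of all other words overlapped there. E-boxes were at 6.22% and 5.61%, E2F words at 1.85% and 1.66%, ETS words at 4.54% and 2.93% and TATA words at 1.85% and 4.46%. The groups also differed in composition, with median GC contents of 61.8% and 59.0%. A match is a string of letters and was not tested as a binding site.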

How the data were processed

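Chromatin immunoprecipitation sequencing gave 1 CHD8 and 1 TRRAP peak list, each from 1 library. Per the submitters' processing notes, HISAT2, MACS2 2.1.1.20160309 and GRCh38 are listed, with no role or order given there. The control, filters and read totals are not given in the sources used here, so depth is unknown. Each deposited list holds a fold (a linear ratio over the caller's background), a −log10 p-value and a −log10 q-value per peak. The deposited score was 10 times the −log10 q, rounded down, by the authors. The file names state rates of false discovery, 0.0001 for CHD8 and 0.001 for TRRAP.

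Peaks were overlapped, by at least 1 bp, with windows of 1 kb on each side of GENCODE 44 gene starts. CpG ratios used 500 bp on each side, and copy number used 32-base words over 101 bp at the summit. Shares have Wilson 95% intervals (statsmodels 0.14.6), and no p-value was computed, because each antibody had 1 library. The overlap step was tested on simulated peaks. Named genes were the panel members, the strongest peaks of each list by −log10 q with a single-copy summit in the window (8 overall and 5 without the other protein) and the 3 strongest multi-copy peaks of each list. Of members sharing a peak, the nearest start was named. Genes of the symbol classes, those nearest to neural factor genes and those with another start occupied were further named after their values were seen. The members and lists were chosen with earlier results of these data known. Analysis used samtools 1.23.1, matplotlib 3.10.9 and Python 3.11.15 with pysam 0.24.0, numpy 2.4.6, numba 0.67.0, scipy 1.17.1 and pandas 2.3.3. Sequences were read from GRCh38. Alternatives changed the window, peak threshold, copy number, merging, exon structure, distance rule, chromosomes and CpG bins.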

Additional observations from a re-analysis of the deposited data

How the results depend on the processing

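Of 76 alternative values, 44 stayed inside the 95% interval of the reported value and 32 did not. With windows of 500 bp and 2500 bp the shares of lncRNA starts were 6.14% and 9.05% for CHD8, 3.55% and 5.24% for TRRAP, and 3.28% and 4.74% for both. With peaks above the median rank of each list they were 3.87%, 2.20% and 1.64%, with TRRAP at 42.2% of CHD8 starts and CHD8 at 74.2% of TRRAP starts. With the strongest CHD8 peaks cut to the length of the TRRAP list, CHD8 was at 4.84%, both at 3.17%, TRRAP at 65.5% of CHD8 starts and CHD8 at 78.5% of TRRAP starts. Single-copy summits gave 5.76%, 3.33% and 2.96%, and CHD8 at 88.7% of TRRAP starts. Merging starts closer than 2 kb gave 6.16%, 3.46% and 3.15%. Genes with a transcript of over 1 exon gave 3.69% for TRRAP and 3.38% for both. Counting any transcript start, an alternative chosen after seeing the data, gave 7.75%, 4.48% and 4.11%. The coding share weighted to the CpG ratios of the lncRNA starts was 16.5% for CHD8 with bins of 0.1. With the CpG ratio taken within 250 bp it was 19.4% for CHD8 and 10.4% for TRRAP, and with windows of 500 bp it was 14.5% and 6.62%. The settings counted fewer or more peaks, starts or bases, or matched starts by CpG ratio in another way. Why the values moved was not tested. The weighted coding share stayed above the share at lncRNA starts in each of its settings. The limits are 1 library per antibody, unknown read depth, an IgG library that was not analysed here, and annotated starts that may differ from those used in these cells. No paired analysis was possible because each antibody had 1 library.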
